A study of Mus musculus with 22 samples.

Results

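The 39 Hox cluster genes of the mouse were read in 22 RNA-seq libraries of sorted tumour cells. They were chosen by name alone, as every row called Hoxa, Hoxb, Hoxc or Hoxd followed by digits only, out of 49671 genes in the deposited table. Of these 39 genes 24 were detected, here meaning that 2 or more libraries reached a value of 10. They comprised 10 of 11 Hoxa genes, 8 of 10 Hoxb genes, 6 of 9 Hoxc genes and 0 of 9 Hoxd genes.

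Hox genes encode homeodomain transcription factors that lie side by side in 4 clusters, and the paralog number gives the place in the cluster. Low-numbered (anterior) genes are switched on early and towards the head, and high-numbered (posterior) genes later and towards the tail, and adult cells tend to keep a Hox code that records where in the body they arose. Polycomb complexes hold silent Hox genes off, trithorax complexes keep active ones on, and the proteins bind DNA together with PBX and MEIS cofactors.

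The cells were primary lines from a mouse tumour, with the genotype parts Lgr5CreER, p53fl/fl and Rosa26-YFP+/+ shared by all groups. Lgr5CreER is a tamoxifen-inducible Cre recombinase under control of the stem cell gene Lgr5. A control line was compared with CRISPR/Cas9 knockout lines of Pitx1 (a homeodomain factor), Klf5 (a zinc finger factor of proliferating epithelia), Nfatc1 (a calcium-regulated factor) and Creb3l1 (a membrane-bound factor released by proteolysis). Cells positive for mCherry and YFP were sorted as EPCAM+ or EPCAM-, EPCAM being an epithelial adhesion protein. All 5 lines were sampled at day 8 in both fractions, and control EPCAM+ cells also at day 0, which gave 11 groups of 2 libraries. Each knockout is a line of its own, so a knockout and the line that carries it cannot be told apart. Whether paired libraries of 1 group came from separate cultures is not stated in the labels, and the p-values then measure only the spread between these libraries, which may be technical.

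The deposited value is a read count scaled to a common total of 20007331 to 20014236, on which 1 read was worth 2.02 to 3.30 units. Libraries held 6054918 to 9882692 reads in genes, and 3 reads, the floor below which a gene is treated here as not quantified, came to 6.07 to 9.91 units. Of the targeted genes, Pitx1 was at 1205 to 1627 in its knockout line against 4358 to 6438 in the control line at day 8, and Nfatc1 at 182 to 249 against 488 to 981. Klf5 mRNA overlapped, at 1961 to 2247 against 1733 to 2941, and Creb3l1 mRNA was at 0 to 6 against 0 to 137. The values hold nothing on the edited sequence, so they check neither of these last knockouts.

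The clusters were unequal in output. Over the 22 libraries the Hoxa genes held 19843 reads, the Hoxc genes 5552, the Hoxb genes 5429 and the Hoxd genes 3, of 30827 in all. The summed value of the Hoxa cluster varied from 1797 to 2973 between libraries and that of the Hoxc cluster from 345 to 879, whereas that of the Hoxb cluster ranged from 314 to 1487. The spread of the Hoxb cluster was carried by its genes from Hoxb5 to Hoxb9, described below.

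By paralog number, Hoxb1 did not pass 3 units and Hoxd1 was at 0. Groups 2 to 7 were detected in every cluster that has them except Hoxd. Groups 8 to 10 were seen as Hoxb8 and Hoxc8, as Hoxa9, Hoxb9 and Hoxc9, and as Hoxa10 and Hoxc10. Beyond group 10 the detected gene was Hoxa11, and Hoxa13, Hoxb13, Hoxc11, Hoxc12 and Hoxc13 did not exceed 10 in any library. Hoxc13, which activates hair keratin genes, reached 9, and Hoxb13, a prostate and tail gene, reached 10. In the Hoxd cluster Hoxd10 and Hoxd13, known from limb patterning, showed 2 reads and 1 read in all, and the other 7 genes were at 0 in all 22 libraries. The map of the genes by library shows this layout.

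**Figure D1:**
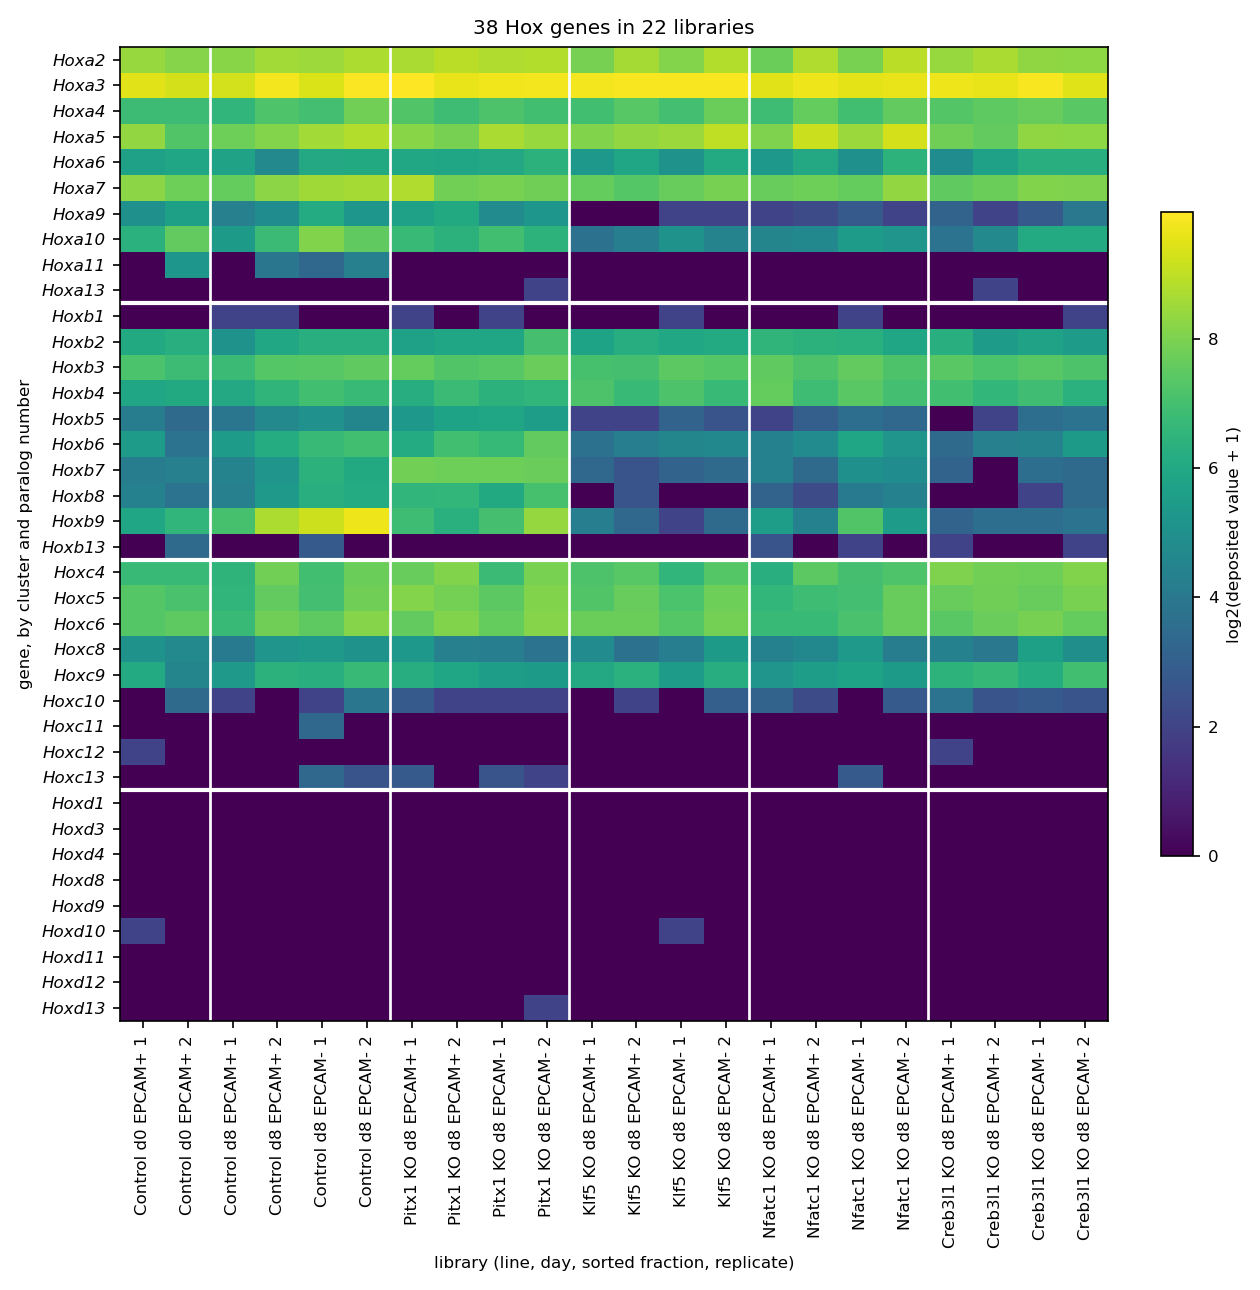
Heat map of log2(deposited value + 1) for 38 Hox genes (rows, by cluster and paralog number) in the 22 libraries (columns, KO meaning knockout). Hoxa2 to Hoxa7, Hoxb2 to Hoxb4 and Hoxc4 to Hoxc6 are bright in all libraries, Hoxa9 to Hoxa11 and Hoxb5 to Hoxb9 differ between lines, and the Hoxd block is dark.

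Among the Hox genes with the highest mean values were Hoxa3, Hoxa2, Hoxa5, Hoxa7, Hoxc6, Hoxc5 and Hoxc4. Hoxa3, needed for thymus and parathyroid development, had the highest deposited value, which is not corrected for length, at 724 and 635 in control day 0 cells. At day 8 it stood, for the 2 EPCAM+ and then the 2 EPCAM- libraries, at 624, 878, 676 and 952 in the control line, 997, 793, 858 and 881 in the Pitx1 knockout, 882, 930, 938 and 925 in the Klf5 knockout, 740, 846, 758 and 796 in the Nfatc1 knockout and 833, 786, 935 and 708 in the Creb3l1 knockout. No line stood apart. Part of Hoxa3 (25.4% of its exonic bases) lies opposite exons on the other strand, and the strand setting of the counting is not given in the sources used here, so reads of the opposite strands cannot be separated.

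Hoxa2, the selector gene of the second branchial arch, was at 342 and 284 at day 0. In the same order of libraries it was at 290, 377, 365 and 420 in the control line, 414, 486, 433 and 455 in the Pitx1 knockout, 244, 395, 275 and 449 in the Klf5 knockout, 213, 437, 246 and 482 in the Nfatc1 knockout and 345, 411, 316 and 309 in the Creb3l1 knockout. Per kilobase of exon it was the highest Hox gene, with a mean of 204.56 units per kilobase, followed by Hoxa5 (179.78) and Hoxa3 (136.76).

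Hoxa5, a gene of the lung and of cervical and thoracic vertebrae, was at 323 and 153 at day 0. At day 8 it was at 217, 277, 377 and 452 in the control line, 289, 240, 418 and 346 in the Pitx1 knockout, 268, 328, 352 and 518 in the Klf5 knockout, 259, 569, 356 and 643 in the Nfatc1 knockout and 220, 189, 319 and 311 in the Creb3l1 knockout. Its EPCAM- value exceeded the EPCAM+ value of the same replicate number in every line. Hoxa7 was at 303 and 214 at day 0, then 196, 296, 374 and 388 in the control line, 432, 228, 250 and 224 in the Pitx1 knockout, 193, 160, 198 and 242 in the Klf5 knockout, 199, 215, 192 and 329 in the Nfatc1 knockout and 183, 211, 270 and 259 in the Creb3l1 knockout, with overlapping lines.

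In the Hoxc cluster these were Hoxc6, Hoxc5 and Hoxc4. Hoxc6, a thoracic patterning gene, was at 160 and 177 at day 0, 105, 220, 180 and 287 in the control line, 188, 268, 194 and 284 in the Pitx1 knockout, 208, 209, 159 and 233 in the Klf5 knockout, 108, 106, 136 and 200 in the Nfatc1 knockout and 168, 203, 239 and 195 in the Creb3l1 knockout. Hoxc5 was at 160 and 138, then 92, 187, 126 and 225, 277, 237, 172 and 268, 152, 202, 141 and 219, 96, 116, 126 and 200 and 197, 225, 201 and 249 in the same order of lines. Hoxc4 was at 107 and 104, then 89, 228, 123 and 209, 200, 270, 110 and 247, 146, 166, 92 and 159, 77, 172, 128 and 148 and 264, 229, 219 and 269. Control EPCAM+ replicate 1 and both Nfatc1 knockout EPCAM+ libraries held the lowest values of Hoxc5 and Hoxc6.

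In the control line, the question was how the Hox genes stood at day 8 against day 0 and in EPCAM- against EPCAM+ cells. Hoxb9, which patterns the rib cage and the mammary gland with its group 9 paralogs, was at 59 and 92 at day 0, 131 and 423 in day 8 EPCAM+ cells and 590 and 840 in day 8 EPCAM- cells. The 3 groups did not overlap and followed that order. Between day 8 EPCAM- and day 0 EPCAM+ cells Hoxb9 rose 9.47-fold (log2 fold change of value + 1 of 3.24 ± 0.69 SE, adjusted p = 0.0209, limma over all 19569 genes tested). It was the 1 of 24 detected Hox genes called there at an adjusted p below 0.05, where 2.01% of all genes were called. The call was lost when any of the 4 libraries was left out (adjusted p 0.0748 to 0.169). That comparison changes day and fraction together, which cannot be told apart in it, and 4 of 5 mesenchymal markers rose and 4 of 7 epithelial markers fell in it. Of 6 tested fibroblast markers Col1a2 rose, and their summed value was 193 and 90 at day 0 against 1804 and 841 in day 8 EPCAM- cells. The part of these markers in the Hoxb9 result was not tested.

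Hoxb8, a gene of the thoracic and lumbar cord that also blocks myeloid differentiation when forced, was at 20 and 13 at day 0, 19 and 41 in day 8 EPCAM+ cells and 75 and 69 in day 8 EPCAM- cells. Hoxb6, expressed in trunk mesoderm, was at 43 and 13, then 45 and 71 and 103 and 122. Both had EPCAM- values above all day 0 values, without passing the test (adjusted p = 0.206 for Hoxb8 and 0.0544 for Hoxb6, the latter 0.0273 with the replicate number as a block). Hoxb7 stood at 17 and 19, 21 and 36 and 83 and 65, and Hoxb5 at 17 and 10, 14 and 25 and 32 and 23.

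The posterior Hoxa genes had a different order in time. Hoxa9, a partner of Meis1 in leukaemia, was at 31 and 49 at day 0, 19 and 28 in day 8 EPCAM+ cells and 69 and 37 in day 8 EPCAM- cells. Hoxa10, a uterine and lumbar patterning gene, was at 82 and 187, then 42 and 109 and 266 and 186. Hoxa11, a gene of the forearm and uterus, was at 0 and 37, then 0 and 14 and 9 and 19. For these genes the day 8 EPCAM+ means were below the day 0 means, but Hoxa10 and Hoxa11 overlapped between the days and none passed the test.

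Between day 8 and day 0 EPCAM+ cells limma called 0 of 24 Hox genes, as it called 0% of all genes tested. At an unadjusted p below 0.05 there were 2, and voom on recovered reads also called 0. Between EPCAM- and EPCAM+ cells of the control line at day 8 limma and voom called 0 of 24 (0.644% of all genes were called by limma), with 2 at an unadjusted p below 0.05. All 24 fitted differences were positive there, with a median log2 fold change of 0.64 against 0.03 over all genes tested. These 24 values share the same libraries. Of these, EPCAM+ replicate 1 held the lowest Hoxa sum (1797) and the joint lowest Hoxc sum (345) of the series. In the pair of replicate 2 libraries Hoxb5, Hoxc4 and Hoxc8 were lower in EPCAM- cells. The 2 EPCAM- libraries lay above the 2 EPCAM+ libraries for Hoxb2, Hoxb3, Hoxb4, Hoxb6, Hoxb7, Hoxb8, Hoxb9, Hoxa5, Hoxa6, Hoxa7, Hoxa9 and Hoxa10. The share of all genes tested that separated in this way was not counted, so the list is no result about Hox genes. In bulk RNA fewer cells with a transcript and less of it per cell cannot be told apart, here and throughout.

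**Figure D2:**
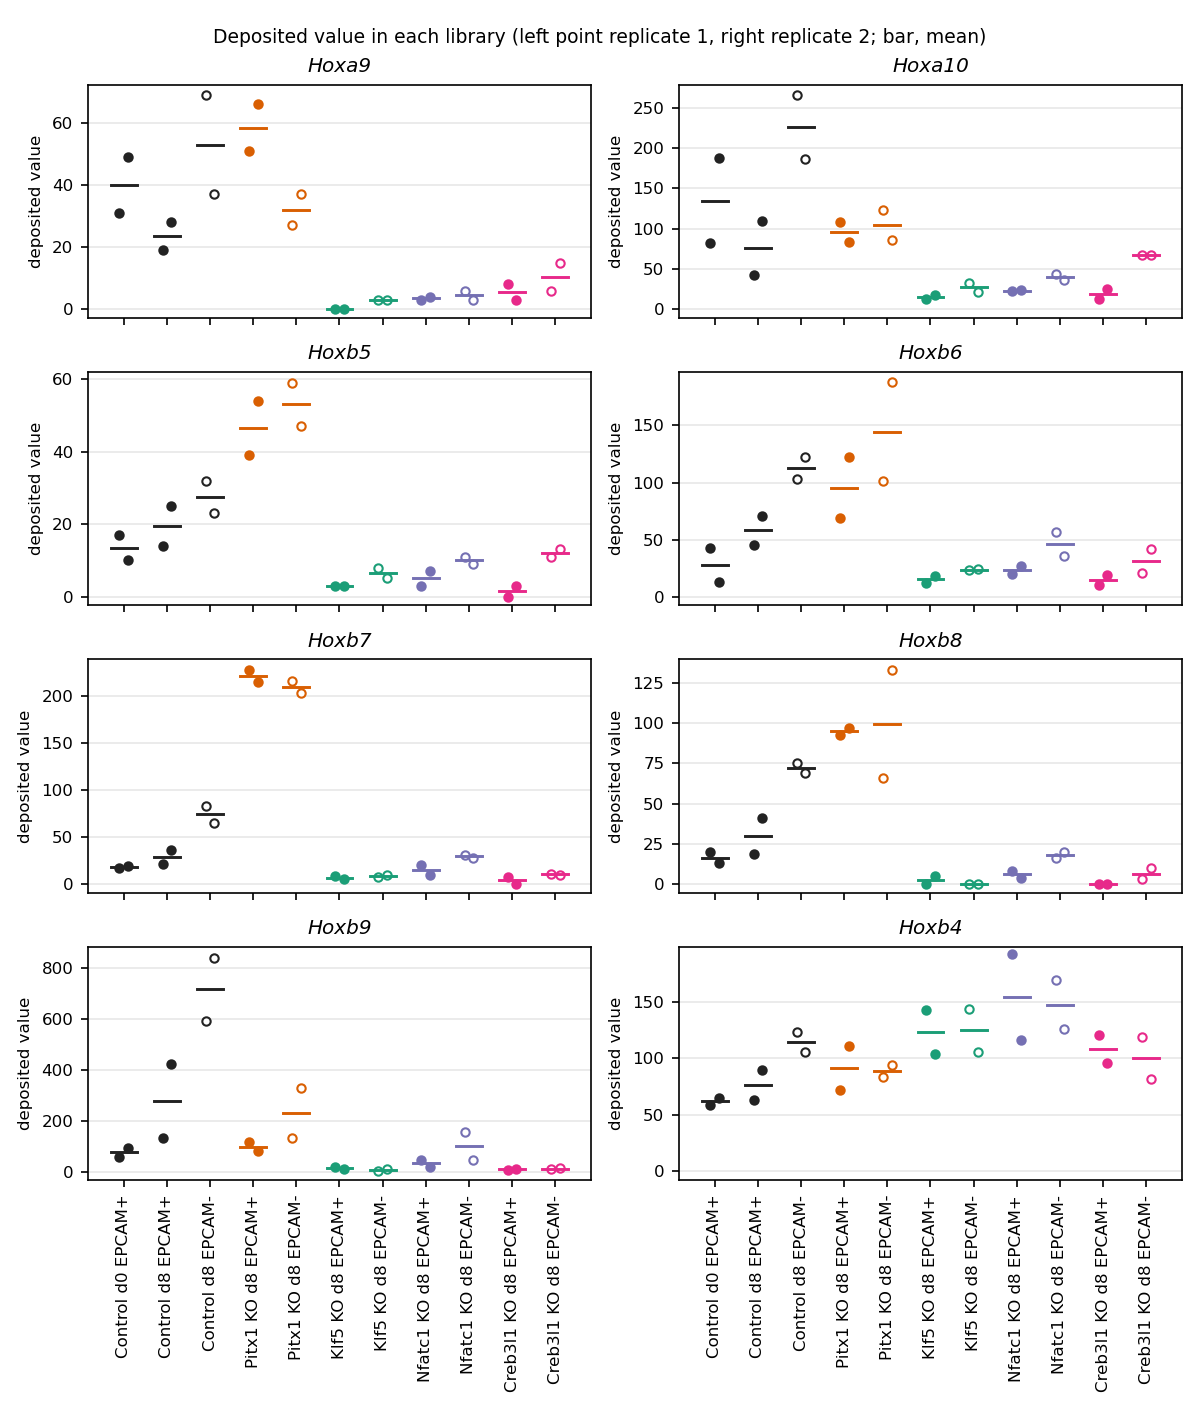
Deposited value (linear axis from 0) of Hoxa9, Hoxa10, Hoxb5 to Hoxb9 and, for comparison, Hoxb4 in each library, by group. Filled points are EPCAM+ and open points EPCAM- libraries, bars are means of 2, black is control. For Hoxa9, Hoxa10 and Hoxb5 to Hoxb9 all 4 Klf5 knockout libraries lie below all 4 day 8 control libraries, while Hoxb4 overlaps. In the Creb3l1 knockout Hoxa10 and in the Nfatc1 knockout Hoxa10 and Hoxb6 to Hoxb9 overlap the control line.

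The lines differed at the posterior end of the Hoxa and Hoxb clusters, so the start regions of genes from these segments are shown before the values. The 4 sequences below are the 300 bases around an annotated start of Hoxb8, Hoxa9 and Hoxa10, which were called between lines, and of Hoxb4, the anterior neighbour of Hoxb5, which was not. They run 5′ to 3′ on the gene's strand, from RefSeq on GRCm38.p6, at chr11:96281655-96281954 (plus strand, Hoxb8), chr11:96318017-96318316 (plus, Hoxb4), chr6:52227321-52227620 (minus, Hoxa9) and chr6:52240805-52241104 (minus, the upstream of 2 entries for Hoxa10). Capitals mark matches, on either strand, to short motifs of the targeted factors' families and of HOX proteins with PBX.
Hoxb8: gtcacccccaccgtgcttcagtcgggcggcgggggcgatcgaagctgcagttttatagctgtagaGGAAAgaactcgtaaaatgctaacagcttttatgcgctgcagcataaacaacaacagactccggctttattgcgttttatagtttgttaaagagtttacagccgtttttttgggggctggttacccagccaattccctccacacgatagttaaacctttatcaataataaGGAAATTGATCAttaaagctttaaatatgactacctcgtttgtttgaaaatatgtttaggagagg
Hoxb4: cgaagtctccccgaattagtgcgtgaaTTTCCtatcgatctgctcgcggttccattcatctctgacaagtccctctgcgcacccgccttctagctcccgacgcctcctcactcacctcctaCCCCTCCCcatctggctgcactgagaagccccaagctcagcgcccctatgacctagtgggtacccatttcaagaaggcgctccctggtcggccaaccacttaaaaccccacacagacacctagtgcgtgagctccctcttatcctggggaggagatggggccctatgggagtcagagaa
Hoxa9: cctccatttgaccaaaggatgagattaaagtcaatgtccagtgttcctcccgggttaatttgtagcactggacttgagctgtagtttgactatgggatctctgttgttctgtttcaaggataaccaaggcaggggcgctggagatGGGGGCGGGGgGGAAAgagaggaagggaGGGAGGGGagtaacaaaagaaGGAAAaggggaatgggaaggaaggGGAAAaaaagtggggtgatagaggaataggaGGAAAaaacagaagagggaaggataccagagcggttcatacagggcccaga
Hoxa10: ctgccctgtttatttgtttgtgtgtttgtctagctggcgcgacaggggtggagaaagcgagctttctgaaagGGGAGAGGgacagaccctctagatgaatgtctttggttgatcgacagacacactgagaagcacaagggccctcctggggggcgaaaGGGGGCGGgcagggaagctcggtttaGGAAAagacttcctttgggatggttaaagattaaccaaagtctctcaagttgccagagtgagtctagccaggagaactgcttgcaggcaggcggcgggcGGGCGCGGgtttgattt

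The motifs searched were TAATCC for PITX, CCNCNCCC for KLF, GGAAA for NFAT, TGACGT for the CRE and TGATNNAT for HOX with PBX. They occur in 7.06%, 49.5%, 61.3%, 7.51% and 8.85% of 32851 RefSeq mouse promoter entries of the same length. Among 24 entries of 22 Hox genes (Hoxa10 and Hoxd11 have 2), 0 held the PITX letters, 17 the KLF, 16 the NFAT, 2 the CRE and 4 the HOX with PBX letters. In Hoxb8 the capitals are NFAT matches at -185 and -15 from the start and a HOX with PBX match at -11 that overlaps the latter. In Hoxb4 they are an NFAT match at -223 and a KLF match at -129. Hoxa9 has KLF matches at -105, -103 (overlapping) and -77 and NFAT matches at -94, -56, -32 and -1, and Hoxa10 has KLF matches at -178, -92 and 34 and an NFAT match at -66. CpG counts were 13 for Hoxb8, 14 for Hoxb4, 12 for Hoxa10 and 4 for Hoxa9, where the median of all entries was 7. A match is a run of letters and not a bound site, and with shares of 49.5% and 61.3% the KLF and NFAT letters are common in any promoter.

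Against the control line at day 8, averaged over both fractions, the Klf5 knockout line had lower values at the posterior ends of the Hoxa and Hoxb clusters. Here and in the other such averages, the 2 fractions of a line were treated as independent. Standard errors and p-values may therefore be too small. Hoxb9 was at 131, 423, 590 and 840 in the control line and at 18, 9, 3 and 10 in the Klf5 knockout (2 EPCAM+, then 2 EPCAM- libraries). Hoxb8 was at 19, 41, 75 and 69 against 0, 5, 0 and 0, and Hoxa9 at 19, 28, 69 and 37 against 0, 0, 3 and 3. Every knockout library was below every control library for these 3 genes. Here and for the other lines, the share of all genes tested that separated in this way was not counted.

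Limma called 6 of 24 Hox genes in that comparison, all of which fell, where 0.557% of all genes were called. Hoxb9 fell by 5.42 ± 0.49 (SE) on the log2 scale of value + 1 (adjusted p = 0.000022), with line means 49.6-fold apart. Hoxb8 fell by 4.88 ± 0.55 (adjusted p = 0.000221) and Hoxa9 fell by 4.14 ± 0.45 (adjusted p = 0.000161). The Klf5 knockout line held 2 reads of each, so the ratio of control to knockout carries a wide exact 95% interval for counting error, 11 to 345 around 41.1 for Hoxb8 and 7.94 to 254 around 30 for Hoxa9.

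Hoxa10 was at 42, 109, 266 and 186 in the control line against 12, 18, 33 and 21 in the Klf5 knockout, and fell by 2.58 ± 0.35 (adjusted p = 0.00109). Hoxb7, 21, 36, 83 and 65 against 9, 5, 8 and 10, fell by 2.39 ± 0.50 (adjusted p = 0.0433). Hoxb6, 45, 71, 103 and 122 against 12, 18, 23 and 24, fell by 2.04 ± 0.40 (adjusted p = 0.0272). Hoxb5 missed the threshold, at 14, 25, 32 and 23 against 3, 3, 8 and 5, with adjusted p = 0.0541 (0.0350 with the replicate number as a block). The calls for Hoxb6 and Hoxb7 were lost when any library but control EPCAM- replicate 2 was left out (adjusted p up to 0.123 and 0.212), and the other 4 held without each library. With only the 8 compared libraries in the fit 1 call was left, Hoxb9.

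The anterior neighbours were not called. Hoxb4, which expands blood stem cells when forced, was at 63, 90, 123 and 106 in the control line and 143, 104, 144 and 106 in the Klf5 knockout. Across the 8 Hoxb genes the median log2 difference was -2.08, across the 10 Hoxa genes -0.08 and across the 6 Hoxc genes -0.16, against -0.03 over all genes tested. In the separate fractions 2 of 24 fell in EPCAM+ cells (Hoxb9 and Hoxa9, where 0.0511% of all genes were called) and 4 in EPCAM- cells (Hoxb9, Hoxb8, Hoxa9 and Hoxa10, where 0.153% were called). Voom called 0 and 3 there. Hoxb8 had no read in the 2 Klf5 knockout EPCAM- libraries and was at least 19.9-fold lower there than in control EPCAM- cells, taking 3 reads over the group as the floor.

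**Figure D3:**
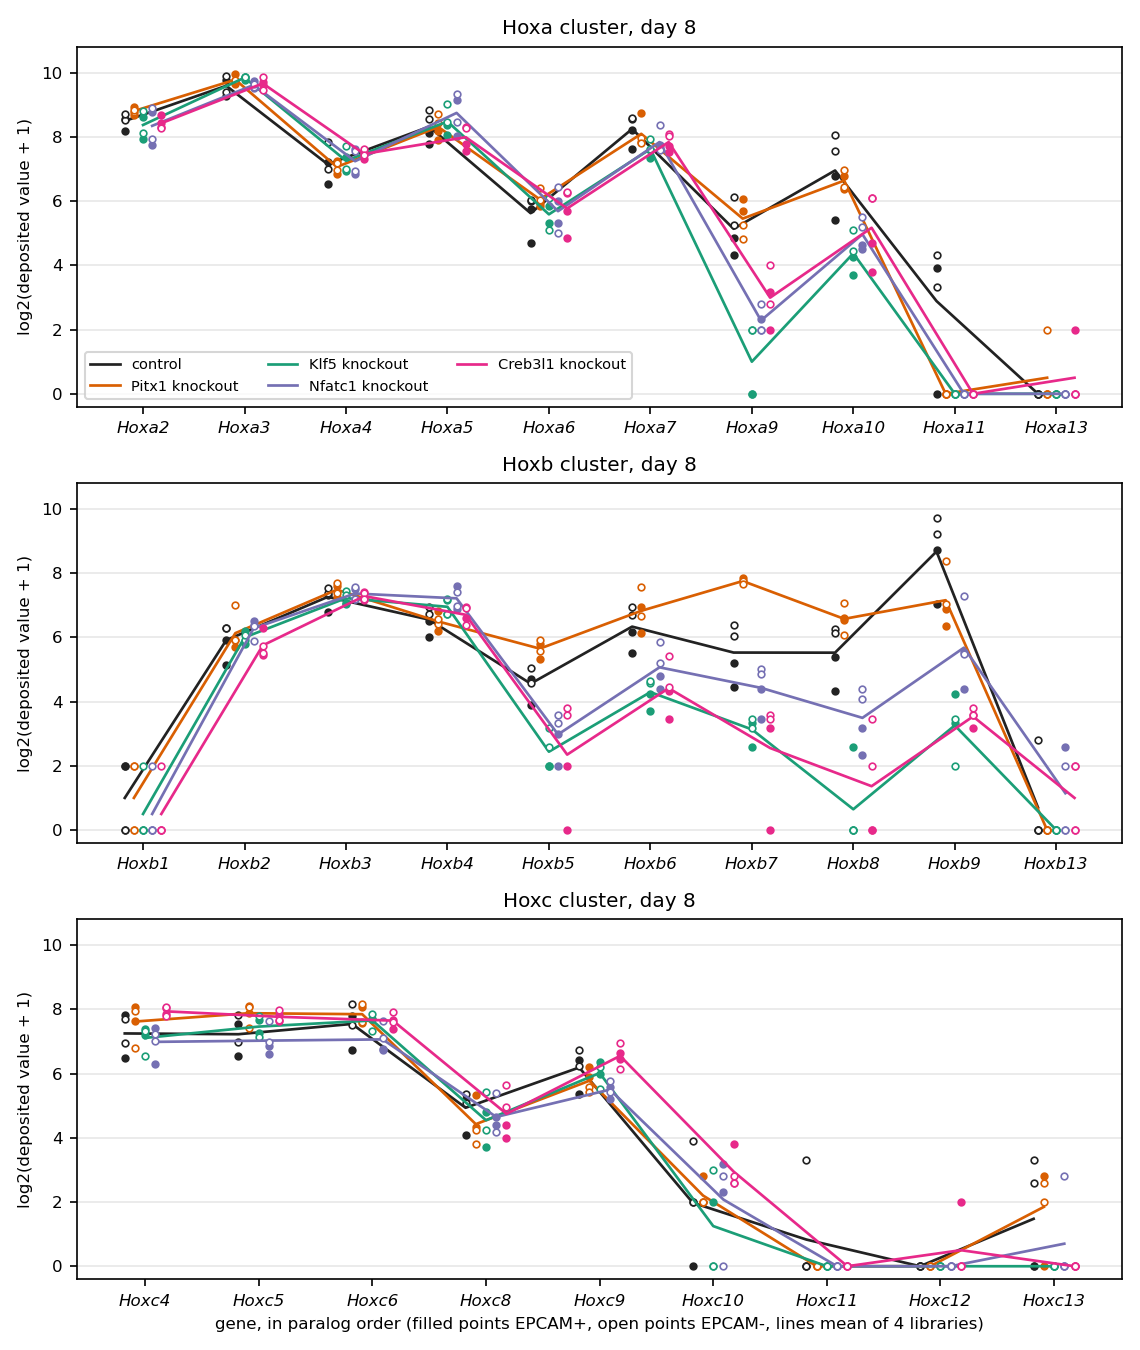
Profiles along the Hoxa, Hoxb and Hoxc clusters at day 8 (genes in paralog order; log2(deposited value + 1)). Points are single libraries, filled for EPCAM+ and open for EPCAM-, and lines join means of 4 libraries. The 5 lines lie close up to Hoxa7 and Hoxb4 and separate at Hoxa9, Hoxa10 and Hoxb5 to Hoxb9. Hoxa11 is at 0 in all knockout libraries. In Hoxc the lines lie closer than at the separating genes. Line means of deposited values there differ 1.87-fold for Hoxc4, 2.12-fold for Hoxc9 and 2.9-fold for Hoxc10, which is near the floor.

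The Creb3l1 knockout line showed the same segment low. Hoxb9 was at 8, 11, 11 and 13, Hoxb8 at 0, 0, 3 and 10 and Hoxb7 at 8, 0, 11 and 10 in the 2 EPCAM+ and 2 EPCAM- libraries, each library below all control libraries. Against control, 7 of 24 Hox genes fell and 0 rose, where 0.945% of all genes were called. Hoxb9 fell by 5.14 ± 0.49 (adjusted p = 0.000015, line means 46.1-fold apart), Hoxb8 fell by 4.16 ± 0.55 (adjusted p = 0.000469, 15.7-fold) and Hoxb7 fell by 2.97 ± 0.50 (adjusted p = 0.0059, 7.07-fold). These 3 calls held with each library left out. Reads in the Creb3l1 knockout libraries were 0, 0, 1 and 4 for Hoxb8 and 3, 0, 4 and 4 for Hoxb7. These lie near or below the floor of 3 reads, so the sizes of both falls are not well measured.

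The other 4 genes that fell in the Creb3l1 knockout were Hoxb5, Hoxb6, Hoxa9 and Hoxa10. Hoxb5 was at 0, 3, 11 and 13 (fell by 2.21 ± 0.47, adjusted p = 0.0295) and Hoxb6 at 10, 19, 21 and 42 (fell by 1.92 ± 0.40, adjusted p = 0.0237). Hoxa9 was at 8, 3, 6 and 15 (fell by 2.14 ± 0.45, adjusted p = 0.0248) and Hoxa10 at 13, 25, 67 and 67 (fell by 1.78 ± 0.35, adjusted p = 0.0164). Hoxa10 was higher in EPCAM- than in EPCAM+ libraries of this line, and its range overlapped that of the control line. Each of the 4 calls was lost without control EPCAM+ replicate 2, control EPCAM- replicate 1 or Creb3l1 knockout EPCAM- replicate 1, and without 2 or 3 further libraries (adjusted p up to 0.164), and 2 calls, Hoxb9 and Hoxb8, were left with only the 8 compared libraries. In single fractions 2 fell in EPCAM+ cells (Hoxb8 and Hoxb9, 0.194% of all genes called) and 1 in EPCAM- cells (Hoxb9, 0.261%), where voom called 0 and 2 and the replicate block 4 and 1. Of 5 mesenchymal markers 2, Cdh2 and Prrx1, fell in this line against control, and in the Nfatc1 knockout 1, Prrx1. The summed value of the 5 was 13560 to 77736 in control, 7824 to 41865 in Creb3l1 and 10172 to 57398 in Nfatc1 knockout libraries, and its part in the Hox results was not tested.

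In the Nfatc1 knockout line Hoxb9 was at 46, 20, 154 and 44, overlapping the control line through EPCAM- replicate 1, and Hoxa9 was at 3, 4, 6 and 3, below all control libraries. These 2 of 24 Hox genes fell against control, where 0.046% of all genes were called. Hoxb9 changed by -3.00 ± 0.49 on the log2 scale (adjusted p = 0.0322, line means 7.52-fold apart) and Hoxa9 fell by 2.86 ± 0.45 (adjusted p = 0.0214, 9.56-fold). The Nfatc1 knockout libraries held 1, 1, 2 and 1 reads of Hoxa9, each below the floor of 3. The size of the Hoxa9 fall is therefore not well measured. Hoxb9 was lost without any of 6 of the 8 libraries, all but control EPCAM+ replicate 1 and Nfatc1 knockout EPCAM- replicate 1 (adjusted p up to 0.19), Hoxa9 without any of 5 (up to 0.175), and both with only the 8 compared libraries. Voom called 2 as well.

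Members that missed the threshold in the Nfatc1 knockout were Hoxa10 (22, 24, 44 and 36, adjusted p = 0.0517, and 0.0161 with the replicate number as a block), Hoxb8 (8, 4, 16 and 20, adjusted p = 0.208) and Hoxb6 (20, 27, 57 and 36, adjusted p = 0.303). Hoxb7 was at 20, 10, 31 and 28 and Hoxb5 at 3, 7, 11 and 9. The median log2 difference was -1.18 over the 8 Hoxb genes and -0.27 over the 6 Hoxc genes, against 0.00 over all genes tested. In neither fraction alone did limma or voom call a Hox gene (0% of all genes in each), with 8 of 24 in EPCAM+ and 6 of 24 in EPCAM- cells at an unadjusted p below 0.05.

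In the Pitx1 knockout line the 1 Hox gene called against control was higher, not lower. Hoxb7, which promotes growth and loss of epithelial traits when forced in breast cells, was at 227, 214, 216 and 203 in its 2 EPCAM+ and 2 EPCAM- libraries against 21, 36, 83 and 65 in the control line. All 4 knockout libraries were above all control libraries, and their spread was small. Hoxb7 rose by 2.23 ± 0.50 on the log2 scale (adjusted p = 0.0177), with line means 4.20-fold apart. It was the 1 of 24 Hox genes called by limma, where 4.28% of all genes were called, and so the share of Hox genes called was close to that of all genes. The call was lost without control EPCAM+ replicate 1, control EPCAM- replicate 2 or any of the 4 knockout libraries (adjusted p up to 0.0714).

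Hoxb8 was at 93, 97, 66 and 133 and Hoxb6 at 69, 122, 101 and 188 in the Pitx1 knockout, overlapping the control line. Hoxb5 was at 39, 54, 59 and 47, above all control libraries, with adjusted p = 0.238 (0.0472 by voom). Hoxb9 was at 117, 80, 130 and 330, a mean 3.02-fold below control with overlapping libraries and adjusted p = 0.0983 (0.0363 by voom). Hoxa9 was at 51, 66, 27 and 37 and Hoxa10 at 108, 83, 123 and 86, both overlapping the control line. In single fractions limma called 0 of 24 in EPCAM+ cells (0.409% of all genes called, 3 members at an unadjusted p below 0.05) and 0 of 24 in EPCAM- cells (0.915%, 4 members), where voom called Hoxb7 in each and the replicate block called it in EPCAM+ cells. Krt14, a basal epithelial keratin, was 1 of 7 epithelial markers that fell in this line and Pdgfra 1 of 6 fibroblast markers that rose, and their part in the Hoxb7 result was not tested.

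**Figure D4:**
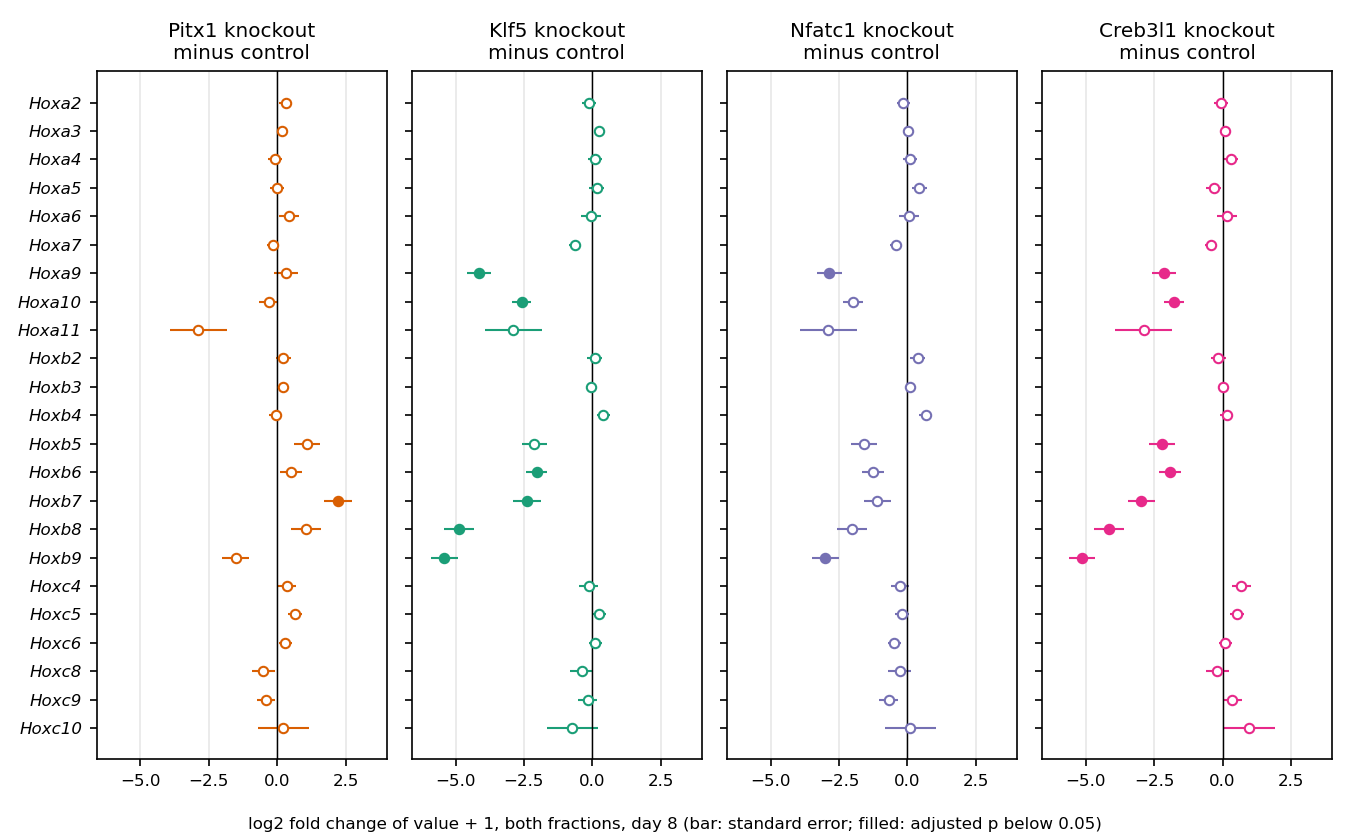
Log2 fold change of value + 1 (x axis) of 23 detected Hox genes (rows) in each knockout line against control at day 8, both fractions averaged. Bars are standard errors and filled points passed an adjusted p of 0.05. Hoxa9, Hoxa10 and Hoxb5 to Hoxb9 lie left of 0 in the Klf5, Nfatc1 and Creb3l1 panels, and Hoxb7 lies right of 0 in the Pitx1 panel.

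Hoxa11 was the 1 of 24 detected members listed at 0 in all 16 knockout libraries. It counted as detected only through control libraries of replicate 2, at 37 on day 0 and 14 and 19 on day 8. A higher control value was thus a condition of its entry and is no support for a difference. In the control line at day 8 it was at 0, 14, 9 and 19, 16 reads in all, so it was at least 5.12-fold to 5.87-fold higher than in each knockout line with 3 reads over 4 libraries as the floor. It was not called against any of them (adjusted p 0.142 to 0.361), and 1 of the 4 control libraries was also at 0. The antisense Hoxa11os, which shares 35% of the exonic bases of Hoxa11, was at 0, 14, 9 and 10 in the control line and at 0 in all but 1 knockout library, and unstranded reads of the pair cannot be separated.

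The 4 comparisons with control share the same control libraries, and their lists of genes are therefore not independent of each other. Comparisons of the knockout lines with each other were added after these values were seen. Their fold changes do not use control, but the control libraries enter the shared estimate of the spread. Against the Klf5 knockout 7 of 24 Hox genes were higher in the Pitx1 knockout (3.28% of all genes were called), against the Creb3l1 knockout 7 (3.82%) and against the Nfatc1 knockout 6 (2.75%), and 0 were lower. The genes were Hoxa9, Hoxa10, Hoxb5, Hoxb6, Hoxb7, Hoxb8 and, except against Nfatc1, Hoxb9. All the Pitx1 knockout libraries were above all libraries of the other line for each of these calls. How many of all genes tested separated in this way was not counted. The calls numbered 7 against Klf5, 6 or 7 against Creb3l1 and 4 to 6 against Nfatc1 when a library was left out.

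Between the Pitx1 and Creb3l1 knockouts Hoxb7 differed by 5.20 ± 0.50 on the log2 scale (adjusted p = 0.000016, line means 29.7-fold apart) and Hoxb8 by 5.21 ± 0.55 (adjusted p = 0.000043, 29.9-fold). The Creb3l1 knockout libraries held 3, 0, 4 and 4 reads of Hoxb7 and 0, 0, 1 and 4 of Hoxb8. Both ratios are therefore not well measured. Between the Pitx1 and Klf5 knockouts Hoxb8 differed by 5.93 ± 0.55 (adjusted p = 0.00001). For the latter, 150 reads stood against 2, a ratio of 78.1 with an exact 95% counting interval of 21.3 to 651. Hoxb5 differed by 3.21 ± 0.47 from Klf5 (adjusted p = 0.00094), 3.30 ± 0.47 from Creb3l1 (adjusted p = 0.000798) and 2.67 ± 0.47 from Nfatc1 (adjusted p = 0.00517). Hoxb9 differed by 3.90 ± 0.49 and 3.62 ± 0.49 from Klf5 and Creb3l1 (adjusted p = 0.000261 and 0.000488).

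The Klf5, Nfatc1 and Creb3l1 knockout lines were also compared with each other. Between the Klf5 and Nfatc1 knockouts limma and voom called 0 of 24 (0.0971% of all genes called, 5 members at an unadjusted p below 0.05, and Hoxb8 with the replicate block, at 0.0233). Hoxa9 was 1 of 24 called between the Klf5 and Creb3l1 knockouts, lower in Klf5 by a log2 difference of -1.99 ± 0.45 (adjusted p = 0.0353, 1.35% of all genes). The Hoxa9 reads were 0, 0, 1 and 1 against 3, 1, 2 and 6 (2 EPCAM+, then 2 EPCAM- libraries). Most of these libraries were at or below the floor of 3 reads, so the size of this difference is not well measured. Hoxb9 was 1 of 24 called between the Nfatc1 and Creb3l1 knockouts, higher in Nfatc1 by 2.14 ± 0.49 (adjusted p = 0.0437, 1.17% of all genes). Both were lost by voom (adjusted p = 0.234 and 0.215) and without any of 6 of the 8 libraries. With the replicate block Hoxb7 and Hoxb8 were also higher in Nfatc1 than in Creb3l1 (adjusted p = 0.0379 and 0.0346).

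Averaged over the 4 knockout lines, 4 of 24 Hox genes were lower than in control (0.659% of all genes called). They were Hoxb9 (-3.77 ± 0.39, adjusted p = 0.000297), Hoxb8 (-2.50 ± 0.43, adjusted p = 0.0109), Hoxa9 (-2.21 ± 0.35, adjusted p = 0.0059) and Hoxa10 (-1.67 ± 0.28, adjusted p = 0.00736). With the replicate block Hoxb6 joined them (adjusted p = 0.0424). This average includes the Pitx1 knockout line, whose libraries overlap the control line for all 4 genes. Without control EPCAM- replicate 1 the 3 genes other than Hoxb9 were lost (adjusted p up to 0.0961), and Hoxb8 also without control EPCAM+ replicate 2.

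Across the 5 lines at day 8, the question was whether Hox genes differed between EPCAM- and EPCAM+ cells. Hoxa10 was higher in the EPCAM- library of each of the 10 pairs with the same line and replicate number, for instance 266 against 42 and 186 against 109 in the control line and 67 against 13 and 67 against 25 in the Creb3l1 knockout. It rose by 1.04 ± 0.22 on the log2 scale (adjusted p = 0.00787) and held with each of the 20 libraries left out. Hoxb5 rose by 1.05 ± 0.30 (adjusted p = 0.0467), was higher in 8 of 10 pairs and was lost in 17 of 20 such fits (adjusted p up to 0.107). These were 2 of 24 Hox genes, where 6.22% of all genes were called, so the share of Hox genes called was close to that of all genes.

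With the replicate number as a block, 4 Hox genes were called between the fractions, adding Hoxb6 (0.84 ± 0.25, adjusted p = 0.0343) and Hoxa5 (0.55 ± 0.17, adjusted p = 0.0471). Both were higher in EPCAM- cells in 10 of 10 pairs. The shares of all genes called by the blocked fit, or higher in 10 of 10 pairs, are not given here. These counts are therefore no result about Hox genes as a set. The markers Hoxb9, Hoxb8 and Hoxa9 were higher in EPCAM- cells in 9, 7 and 6 of 10 pairs and did not pass the test (adjusted p = 0.249, 0.180 and 0.203). Of all 24 fitted differences 22 were positive, with a median of 0.26 against 0.06 over all genes tested, 0.75 over the Hoxb genes and 0.10 over the Hoxc genes. These 24 values share the same libraries. In no knockout line alone was a Hox gene called by limma or voom (0.317% of all genes called for the Pitx1 line, 0.286% for Klf5, 0.429% for Nfatc1, 0.291% for Creb3l1), with 0, 1, 0 and 4 of 24 at an unadjusted p below 0.05.

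**Figure D5:**
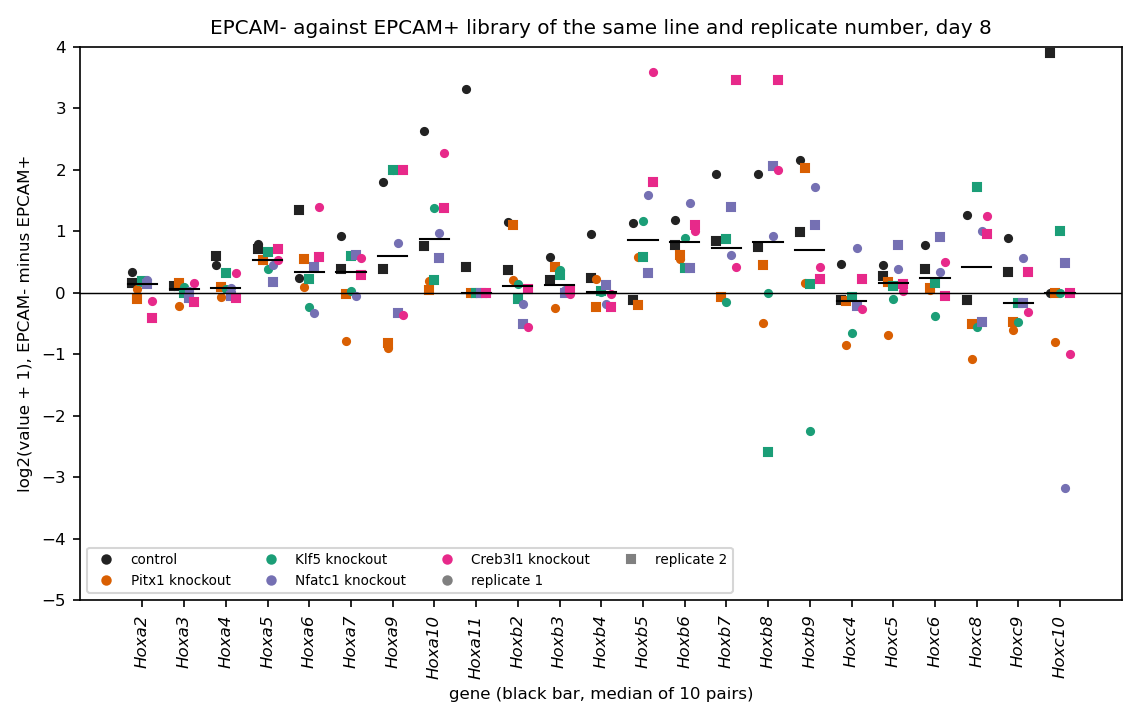
Difference of log2(value + 1) between the EPCAM- and the EPCAM+ library of the same line and replicate number (y axis) for 23 detected Hox genes, day 8. Each point is a pair, coloured by line, and black bars are medians of 10 pairs. All 10 points of Hoxa5, Hoxa10 and Hoxb6 are above 0.

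The fraction difference itself was compared between the knockout lines and the control line. Limma and voom called 0 of 24 Hox genes and 0% of all genes, and 0 Hox genes had an unadjusted p below 0.05. The fitted difference was smaller in the knockouts for 23 of 24 genes, with a median of -0.45 against 0.02 over all genes tested, and for Hoxb9 it was -1.13 ± 0.78. These 24 values share the same control libraries, and at this spread a change of that size was not detectable.

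Among the marker genes of the sort, 5 of 5 mesenchymal genes rose and 5 of 7 epithelial genes fell in EPCAM- against EPCAM+ cells over the 5 lines. Fibroblast markers moved with the fraction, in 2 of 6 tested genes (Col1a1 and Pdgfrb). At day 8 their sum was 160 to 888 in EPCAM+ libraries and 668 to 5007 in EPCAM- libraries. Of the defining genes Dcn was above 0 in 5 of 22 libraries, with a highest value of 61, and Lum in 2, with a highest value of 6. Between lines the fibroblast sum was 294 to 1804 in the control line and, in the knockouts, 716 to 5007 (Pitx1), 267 to 2626 (Klf5), 160 to 3820 (Nfatc1) and 289 to 2360 (Creb3l1), overlapping throughout, and 1 of 6 genes, Pdgfra, rose in the Pitx1 knockout. Its part in the Hox results was not tested. Immune markers summed to 38 to 103 at day 8, with Cd3e at 0 in all libraries and Ptprc at most 9.

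The remaining detected Hox genes are given by their range over the 22 libraries. Hoxa4 was at 92 to 227, Hoxa6 at 25 to 85, Hoxb2 at 34 to 128 and Hoxb3 at 110 to 206. Hoxc8 was at 12 to 49, Hoxc9 at 22 to 124 and Hoxc10, near the floor of 3 reads, at 0 to 14. None of these 7 was called in any comparison without a block. Hoxa4, Hoxa6, Hoxb2, Hoxb3 and Hoxc8 had line means at day 8 that differed by 1.2-fold to 1.44-fold, Hoxb4 by 1.67-fold and Hoxc9 by 2.12-fold. Hoxc9 was highest in the Creb3l1 knockout at 87, 98, 70 and 124 and lowest in the Nfatc1 knockout at 36, 47, 54 and 42. By contrast the line means of Hoxb8 differed by 77.8-fold, of Hoxb9 by 49.6-fold, of Hoxa9 by 30.17-fold and of Hoxb7 by 29.66-fold. The lowest means of Hoxb8 and Hoxa9, in the Klf5 knockout, rest on 2 reads each, below the floor of 3. Taken on reads, exact 95% counting intervals of the Pitx1 to Klf5 ratio were 21.3 to 651 for Hoxb8 and 9.72 to 307 for Hoxa9. No Hoxc gene was called in any of the comparisons given here by limma without a block. With the block Hoxc5 and Hoxc6 were higher in the Pitx1 than in the Nfatc1 knockout (adjusted p = 0.0164 and 0.0227) and Hoxc4 lower in the Nfatc1 than in the Creb3l1 knockout (adjusted p = 0.0357). About 52.9% of the exonic bases of Hoxb3 lie opposite Hoxb3os, and its values may include reads of both.

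Of the genes that work with or on Hox genes, few moved. Among 8 tested PBX, MEIS and PKNOX cofactors, Meis2 and Meis3 rose in EPCAM- against EPCAM+ cells (log2 0.69 ± 0.16, adjusted p = 0.016, and 1.71 ± 0.30, adjusted p = 0.00149), and none was called between any knockout and control. The upstream regulators Cdx1, Cdx2 and Cdx4 reached at most 3, 19 and 0. Of 23 Polycomb genes 1, Rbbp7, fell in the Pitx1 knockout (-0.63 ± 0.15, adjusted p = 0.0242) and in the mean of the 4 knockouts (adjusted p = 0.0472), and of 12 trithorax and related genes 1, Kmt2a, rose in day 8 EPCAM- against day 0 cells (0.90 ± 0.19, adjusted p = 0.0195). Of 7 tested retinoid pathway genes Rxra fell in the Pitx1 knockout (-0.53 ± 0.11, adjusted p = 0.00901).

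Of 5 tested noncoding genes named after Hox genes 1, Hoxb5os, was called. Hoxb5os, antisense to Hoxb5, was at 8, 11, 9 and 14 in the control line, 24, 22, 20 and 16 in the Pitx1 knockout, 0, 0, 0 and 3 in the Klf5 knockout, 0, 0, 8 and 3 in the Nfatc1 knockout and 0, 0, 6 and 8 in the Creb3l1 knockout. It rose in EPCAM- against EPCAM+ cells over the 5 lines (1.29 ± 0.36, adjusted p = 0.0413), with overlapping libraries. It fell in the Klf5 knockout (-3.00 ± 0.57, adjusted p = 0.023) and was higher in the Pitx1 knockout than in each of the other knockouts (adjusted p = 0.000884, 0.0064 and 0.00684). The Klf5 knockout values lay below the floor of 3 reads, so the size of that fall is not well measured. Hoxb5os shares 3.6% of the exonic bases of Hoxb5. Hotairm1 was at 114 to 229 in the 22 libraries and was not called in any comparison. Hotair, Hottip and Halr1 did not exceed 3, and the miRNA genes of the clusters did not exceed 6.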

How the data were processed

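RNA of 22 sorted libraries was sequenced, 11 groups of 2. Per the submitters' processing notes FastQC, Trimmomatic, STAR, Picard and HTSeq were used with GRCm38 (mm10), and the strand setting is not given in the sources used here. The authors deposited normalised counts, treated here as a score: each value is a read count times a factor per library, rounded up to a whole number, and 99.8% to 99.93% of values lie on such steps. Dividing by the step gave 6054918 to 9882692 reads per library, and shares and ratios of few reads carry counting error only.

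Values were tested with limma 3.58.1 in R 4.3.3 on log2(value + 1), on the 19569 genes that reached a value of 10 in 2 or more libraries, with 1 mean per group over all 22 libraries (11 residual degrees of freedom), variance trend and robust moderation. P-values were adjusted by Benjamini-Hochberg over all genes tested, with a threshold of 0.05. The fit was also run on simulated data with independent libraries and a fixed spread setting. Those data cannot give the error rate here, where same-numbered libraries correlate. Fold changes on this scale understate those of low genes, and ratios are of mean deposited values. Planned edgeR alternatives were not run, since the values are not counts, and voom on recovered reads was used in their place. Other alternatives were pseudocounts of 0.5 and 5, no filter, a filter at 50, the replicate number as a block, only the compared groups, single libraries left out and median-of-ratios scaling. Counts of Hox genes called by voom or the alternatives are given without the share of all genes called there. Such counts are no result about Hox genes as a set. Voom, that scaling and the 6 comparisons between knockout lines were chosen after seeing the data.

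The labels give the replicate number as a batch, so it pairs libraries across groups. Deviations of same-numbered libraries correlated at a median r of 0.146 over 55 pairs of groups (-0.131 to 0.381), over 0.1 in 36 of them and at 0.171 to 0.381 between the fractions of 1 line. The fits did not model the pairs within a line, and the block is shared by all lines. Standard errors of averages over both fractions may therefore be too small. The members and the other gene lists were chosen with earlier results of these data known. Values in every library are given for Hoxb9, Hoxb8, Hoxa9, the 8 members with the highest mean and members called in a main comparison, and the other members by range and counts. Positions and exon overlaps came from the GRCm38 annotation, which matched 49326 of 49671 gene identifiers (99.3%), and start regions from RefSeq (GRCm38.p6). Python 3.11.15, numpy 2.4.6, pandas 2.3.3 and matplotlib 3.10.9 were used. A further allele of the genotype and the values of 1 member and 1 cofactor gene are not reported here or drawn in the figures, though the counts over members include that member.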

Additional observations from a re-analysis of the deposited data

Results flagged for a closer look

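Each of these log2 differences between 2 knockout lines, averaged over both fractions, passed limma's test of the difference (Benjamini-Hochberg over all genes). They are differences between lines, in which the control libraries cancel, and a knockout and the line that carries it cannot be told apart. Between the Pitx1 and Klf5 knockouts they were 4.46 for Hoxa9, 2.27 for Hoxa10, 3.21 for Hoxb5, 2.53 for Hoxb6, 4.62 for Hoxb7, 5.93 for Hoxb8 and 3.90 for Hoxb9. Between the Pitx1 and Nfatc1 knockouts they were 3.17 for Hoxa9, 1.67 for Hoxa10, 2.67 for Hoxb5, 1.76 for Hoxb6, 3.33 for Hoxb7 and 3.08 for Hoxb8. Between the Pitx1 and Creb3l1 knockouts they were 2.46 for Hoxa9, 1.47 for Hoxa10, 3.30 for Hoxb5, 2.41 for Hoxb6, 5.20 for Hoxb7, 5.21 for Hoxb8 and 3.62 for Hoxb9. Hoxa9 differed by -1.99 between the Klf5 and Creb3l1 knockouts, where most libraries held 3 reads of it or fewer. Hoxb9 differed by 2.14 between the Nfatc1 and Creb3l1 knockouts. With single libraries left out, Hoxa10 lost its call between the Pitx1 and Creb3l1 knockouts in 6 of 8 fits (adjusted p up to 0.123). Between the Pitx1 and Nfatc1 knockouts Hoxa10 and Hoxb6 each lost it in 4 of 8 (up to 0.0741 and 0.0917), Hoxb6 also with the compared groups alone. The comparisons with the Pitx1 knockout share its 4 libraries.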

How the results depend on the processing

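No value of a called Hox gene reversed. Over the alternatives other than single libraries left out, 328 of 359 values of called genes kept their call and 31 lost it, 15 of these when the fit held the compared groups alone. Hoxb7 in Klf5 was also lost with a pseudocount of 0.5 and a filter at 50, and Hoxb5 in Creb3l1 with that filter. With single libraries left out 325 of 428 kept it. The replicate block kept all 45 calls. Where not named, the cause of a change was not tested.

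The 2 Hox genes called between fractions over 5 lines became 1 with a pseudocount of 0.5 or 5, no filter, a filter at 50 or median-of-ratios scaling, 4 with the replicate block, and 1 to 3 with a library left out. Day 8 EPCAM- against day 0 gave 3 with a pseudocount of 5, 2 with the block and 0 to 1 with a library left out. Pitx1 against control gave 3 by voom and 0 to 1 with a library left out. With only the compared groups, which uses fewer libraries, Klf5 gave 1, Nfatc1 0 and Creb3l1 2, and a filter at 50 gave 1 for Nfatc1. With a library left out Klf5 gave 4 to 6, Nfatc1 0 to 3, Creb3l1 3 to 6 and the mean of the knockouts 1 to 5.

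Among knockout lines, Klf5 against Nfatc1 gave 1 with the block and 0 to 1 with a library left out. Klf5 against Creb3l1 gave 0 with a pseudocount of 5, no filter, a filter at 50 or voom, and 0 to 1 with a library left out. With only the compared groups it also gave 0, but there Hoxa9 did not pass the filter and was not tested. Nfatc1 against Creb3l1 gave 0 with a pseudocount of 5, voom, median-of-ratios scaling or only the compared groups, 4 with the block, and 0 to 1 with a library left out. A lone library of a group was assumed to vary like the others. 1 read came to 2.02 to 3.30 units, depending on the library.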

Other observations

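Of the protein-coding genes that flank the clusters, Skap1, a T cell adaptor gene beside the Hoxb cluster, was at 137, 97, 139 and 86 in the Klf5 knockout (2 EPCAM+, then 2 EPCAM- libraries), 133, 75, 144 and 148 in the Creb3l1 knockout 144, 80, 128 and 80 in the Nfatc1 knockout, 21, 40, 13 and 60 in the Pitx1 knockout and 21, 79, 46 and 85 in the control line. It was lower in the Pitx1 than in the Klf5 knockout (log2 -1.94 ± 0.48, limma adjusted p = 0.0352) and than in the Creb3l1 knockout (-2.04 ± 0.48, adjusted p = 0.0245), where the Hoxb genes called were higher. Against the Nfatc1 knockout it was not called (-1.83 ± 0.48, adjusted p = 0.0534). Against control it was not called in any line. Mtx2, a mitochondrial import gene beside the Hoxd cluster, rose in the Pitx1 knockout against control (0.43 ± 0.11, adjusted p = 0.0378), while the Hoxd genes stayed at or near 0 in all libraries. Another Hoxd neighbour also had higher values in the Pitx1 knockout, for which no test result is given here. Lnpk, on the other side, was at 2032, 1674, 2232 and 1606 in the Pitx1 knockout against 1512, 1416, 1143 and 1376 in the control line. The summed value of the 6 flanking genes was 27927 to 35911 against 20771 to 30434, with overlapping ranges. Most of that sum was Hnrnpa3, at 25481, 26093, 21318 and 17521 against 21618, 17007, 18415 and 13455, also overlapping.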
